A study of Mus musculus with 96 samples.

Results

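Leukaemias grown from granulocyte-monocyte progenitors alone were compared between Ptprca and NSG recipients, clone by clone. The members were the bone marrow and spleen libraries of the mice labelled as carrying a GMP tumour only, with the GMP_T0 pool sequenced before transplantation as reference. This took in 34 of the 96 libraries of the series, which form 16 of its 48 table columns beside the pool's. They came from 8 mice, 4 per host (mice 5 to 8 Ptprca, mice 13 to 16 NSG), each with both tissues. The labels describe GMP (Lin-, c-Kit+, CD34+, FcγR high) sorted from bone marrow of female C57BL/6 mice, 6 to 8 weeks old. The cells were given MLL-AF9 by retrovirus, grown with IL-3, IL-6 and SCF, and marked with SPLINTR barcodes of the mCHERRY library. All groups therefore shared the oncogene, the culture and the pool. The labels give neither the age of the recipients nor the cell dose or the time of harvest. Each host was deposited as a table of its own, so host, table and group of mice cannot be told apart.

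GMP are committed myeloid progenitors that normally give rise to neutrophils and monocytes. The fusion MLL-AF9 keeps genes of a stem cell programme, such as Hoxa9 and Meis1, switched on, and turns such progenitors into transplantable acute myeloid leukaemia. A SPLINTR barcode is a short stretch of DNA inserted in the genome, so every descendant of a marked cell carries it and its share of barcode reads follows the size of that clone. Ptprca mice are a congenic C57BL/6 strain with a working immune system, while NSG mice lack B, T and NK cells. Marrow is the usual seat of this leukaemia and spleen a usual site of its spread.

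Clones were followed over the 1251 mCHERRY barcodes listed for both hosts, of which 1050 were above 0 in the pool. Values are counts per 1000000 of these reads (CPM) or percent of them, so they give a clone's share within a mouse and not its number of cells. A clone is named by the number of its barcode (clone 626161 is mCHERRY_2_Barcode_626161). Each mouse column rested on 5437021 to 7376414 reads, 97.2% to 99.98% of them in these barcodes, and mCHERRY barcodes of any kind made up 99.0% to 99.99%. A listed 0 allows a share of up to 4.07e-05% to 5.52e-05%, and counting error moved no share by more than 0.0385 percentage points (half-width of the 95% Wilson interval). Both limits cover counting error only. Reads of the GFP library, which marks LSK-derived cells that these mice did not receive, made up 0.944% and 0.191% of the marrow of Ptprca mice 6 and 8, and 0.462% and 0.538% of the spleen of NSG mice 13 and 14, against 0.0137% in the pool. Barcodes found in no pool made up 2.92% of the spleen of Ptprca mouse 7. Their part in the results was not tested beyond leaving these 5 libraries out. Leaving out the 5 libraries changed no direction in clone number at 100 CPM (log2 1.47 in marrow and 0.81 in spleen against 1.40 and 0.88), in effective clones of marrow (0.67 against 0.64) or in rank order.

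With 4 mice against 4, an exact permutation test cannot go below p = 0.0286. Of the 17 permutation tests made, 8 reached that smallest p, and each of these had a Benjamini-Hochberg adjusted p of 0.0607. None of the 17 passed 0.05 after adjustment, so the differences in clone number, rank order and fold over pool below are given as values and as groups that do or do not overlap. Permutation p-values at other minimum sizes, for other clone sets and for the median clone of a class stand outside these 17 and were not adjusted.

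Ptprca marrow held more clones than NSG marrow, and the gap lay in the clones of middle and small size. At or over 100 CPM, which is 0.01% of the leukaemia, Ptprca marrow held 98, 89, 89 and 80 clones in mice 5 to 8, and NSG marrow held 37, 34, 30 and 34 in mice 13 to 16. Every Ptprca marrow lay above every NSG marrow. The means were 89.0 ± 7.35 and 33.8 ± 2.87 (SD, n = 4 each), 2.64-fold apart (log2 difference 1.40, exact two-sided permutation p = 0.0286, adjusted 0.0607). The pool held 607 clones of that size.

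The minimum size set how far the hosts lay apart. At or over 1 CPM the marrow means were 262 ± 121 and 66.3 ± 11.6 clones (3.74-fold), the Ptprca spread coming from 442 clones in mouse 8 against 184 to 212 in the other 3. The marrow library of mouse 8 is among those with GFP reads (0.191%), and leaving it out was not tried at this minimum. At or over 10 CPM the marrow means were 155 ± 16.3 and 55.3 ± 8.10 (2.82-fold), and at or over 1000 CPM 43.5 ± 5.97 and 20.0 ± 2.16 (2.17-fold; SD, n = 4 each). At none of these 3 minima did the hosts overlap (exact permutation p = 0.0286 each). At or over 10000 CPM, 1% of the leukaemia, Ptprca marrow held 9 to 11 clones and NSG marrow 8 to 13, which overlap (1.04-fold, exact permutation p = 0.800).

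In spleen the hosts also differed in small clones, and came together at a lower size. Ptprca spleen held 65, 55, 52 and 47 clones at or over 100 CPM and NSG spleen 31, 25, 31 and 32. The groups did not overlap, with means of 54.8 ± 7.59 and 29.8 ± 3.20 (SD, n = 4 each), 1.84-fold apart (log2 difference 0.88, exact permutation p = 0.0286, adjusted 0.0607). The gap was 2.55-fold at 1 CPM and 2.32-fold at 10 CPM. At 1000 CPM it was 1.06-fold, with 18 clones in each of the 4 Ptprca spleens against 17, 15, 20 and 16 in NSG (exact permutation p = 0.314), and at 10000 CPM both hosts had a mean of 9.5 clones (exact permutation p = 0.971).

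**Figure D1:**
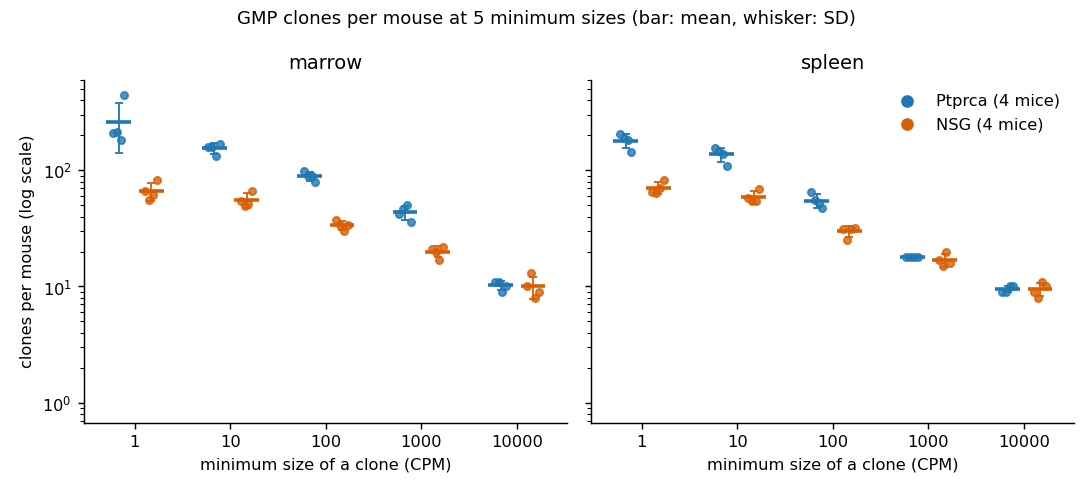
Number of GMP clones per mouse (vertical, log scale) at or over 5 minimum sizes in CPM (horizontal), in marrow (left) and spleen (right); points are mice, bars means and whiskers SD over 4 mice. The hosts stand apart at 1 to 1000 CPM in marrow and at 1 to 100 CPM in spleen, and meet at 10000 CPM, where each host had a mean of 9.5 to 10.3 clones.

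Marrow and spleen thus differed in how far the hosts lay apart. Clones at or over 100 CPM were 1.51 to 1.71 times as many in marrow as in spleen of the same mouse in Ptprca, and 0.968 to 1.36 times in NSG. The ranges did not overlap (log2 difference between hosts 0.52, exact permutation p = 0.0286, adjusted 0.0607). At 1000 CPM marrow held 2.00 to 2.78 times as many clones as spleen in Ptprca and 0.850 to 1.38 times in NSG (log2 difference 1.03, exact permutation p = 0.0286), while at 10 CPM and at 1 CPM the ranges overlapped (exact permutation p = 0.0571 and 0.114).

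Clone diversity, taken as effective clones, followed the clone number in marrow but not in spleen. It depends on both the number of clones and the evenness of their shares, and evenness alone was not measured. Effective clones, taken as the exponential of the Shannon entropy of the clone shares, were 11.8, 12.2, 11.5 and 10.3 in Ptprca marrow and 8.03, 8.10, 5.66 and 7.73 in NSG marrow, against 269 in the pool. No values were shared between the ranges (means 11.4 ± 0.808 and 7.38 ± 1.16, SD, n = 4 each; 1.56-fold; exact permutation p = 0.0286, adjusted 0.0607). In spleen the values were 6.75, 6.50, 7.34 and 6.96 in Ptprca and 7.23, 6.03, 7.24 and 7.43 in NSG. These overlap, with a log2 difference of -0.02 (exact permutation p = 0.886). The largest clone alone took 25.3% to 30.6% of Ptprca marrow and 27.95% to 35.4% of NSG marrow (exact permutation p = 0.200), and 33.7% to 36.8% of Ptprca spleen and 30.3% to 36.3% of NSG spleen (exact permutation p = 0.429).

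NSG marrow held less in clones of middle and low rank and more in its leaders. Clones ranked 11 to 50 in a mouse held 8.36% to 10.4% of Ptprca marrow and 1.97% to 5.97% of NSG marrow. Those ranked below 50 held 1.08% to 1.88% in Ptprca and 0.00158% to 0.0313% in NSG. The 10 largest clones of each mouse accordingly held 87.8% to 90.6% of Ptprca marrow and 94.0% to 98.0% of NSG marrow. Within these 10 the hosts overlapped. The 2 largest held 48.4% to 51.2% of Ptprca marrow and 50.3% to 66.2% of NSG marrow. Clones ranked 3 to 10 held 38.45% to 40.06% and 31.8% to 45.5%. In spleen the 10 largest held 95.4% to 97.1% in Ptprca and 94.3% to 98.4% in NSG, so the hosts overlapped there. Clones ranked below 50 still held more in every Ptprca spleen (0.204% to 0.569%) than in any NSG spleen (0.0127% to 0.0502%). These shares are a description, with no test.

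The same pair of clones led the leukaemia in both hosts. Clones 626161 and 283858 took the first and second rank, in either order, in all 16 mouse tissues. Clone 626161 held 2.97% of the pool (rank 2), and 30.6%, 25.3%, 28.9% and 27.96% of Ptprca marrow against 32.5%, 27.95%, 30.8% and 29.1% of NSG marrow. In spleen it held 33.7%, 30.8%, 29.2% and 24.5% in Ptprca and 27.1%, 24.5%, 36.3% and 27.4% in NSG. The hosts overlap in both tissues (limma adjusted p = 0.484 in marrow and 0.836 in spleen).

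Clone 283858 came from 0.491% of the pool (rank 41) and reached a like share. It held 18.8%, 23.9%, 19.5% and 23.2% of Ptprca marrow and 21.7%, 25.1%, 35.4% and 21.2% of NSG marrow, and 33.0%, 36.8%, 34.2% and 36.0% of Ptprca spleen against 31.7%, 36.2%, 23.6% and 30.3% of NSG spleen. The hosts overlap again (limma adjusted p = 0.267 and 0.222). NSG mouse 15 stood apart in both tissues: clone 283858 led its marrow and clone 626161 its spleen, the reverse of the other 3 NSG mice.

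Over the tested clones, leaders included, the order was more alike between mice of the same host than between hosts. In marrow, over the 102 clones whose mean reached 100 CPM, Spearman's rho averaged 0.610 over the 6 pairs of Ptprca mice (0.498 to 0.684), 0.670 over the 6 pairs of NSG mice (0.592 to 0.767) and 0.473 over the 16 pairs of different hosts (0.379 to 0.610). Within-host pairs exceeded between-host pairs by 0.167 on average (exact one-sided permutation of the host labels, 35 arrangements, p = 0.0286, adjusted 0.0607). In spleen, over 51 clones, the averages were 0.788 (0.720 to 0.870), 0.822 (0.759 to 0.899) and 0.442 (0.322 to 0.540). Here no pair of different hosts was as alike as any pair of the same host, and the excess was 0.363 (exact permutation p = 0.0286, adjusted 0.0607). The correlations run across clones, which share each mouse's library and sum to 1 total, so they are a description. Clones were admitted by a mean over both hosts and could enter through 1 host alone. In marrow 20 of the 102 were at 0 in all NSG mice, in spleen 3 of the 51, and 0 in all Ptprca mice of either tissue. Such clones can lower rho between hosts, so the size of the excess depends on the clones admitted.

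The excess was present among the largest clones and below them. Without the 2 largest clones it was 0.178 in marrow and 0.410 in spleen, and without the 10 largest 0.198 and 0.493 (exact permutation p = 0.0286 each; both settings were chosen after the values were seen). Over the 20 largest clones it was 0.160 in marrow and 0.355 in spleen, and over clones whose mean reached 1000 CPM 0.182 and 0.351. Over all 1050 clones present in the pool it was 0.143 in marrow and 0.107 in spleen. Without the libraries rich in GFP or poolless barcodes it was 0.236 and 0.391, where the fewer mice allow no p below 0.0667 and 0.10.

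**Figure D2:**
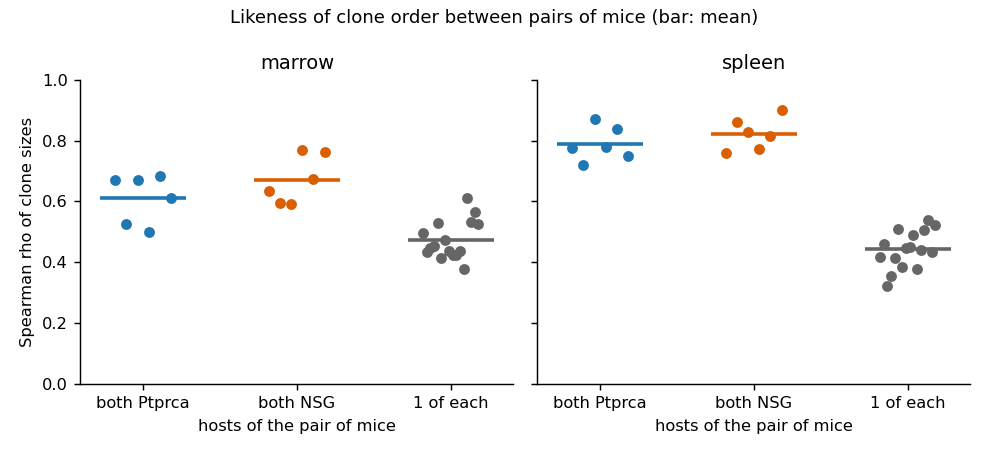
Spearman rank correlation of clone sizes (vertical, 0 to 1) between each pair of mice, in marrow (left, 102 clones) and spleen (right, 51 clones), for pairs of 2 Ptprca mice, 2 NSG mice or 1 of each; points are pairs and bars their mean. In spleen the pairs of different hosts (0.322 to 0.540) all lie below the pairs of the same host (0.720 to 0.899); in marrow the ranges meet.

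Many clones reached 0.01% in a single mouse of a host, and some in all 4. In marrow 155 clones reached 100 CPM in at least 1 Ptprca mouse and 62 in at least 1 NSG mouse, with 51 in both lists (32.9% of the Ptprca list and 82.3% of the NSG list). Of these, 63 Ptprca clones (40.6%) and 28 NSG clones (45.2%) did so in 1 mouse of the host only, against 45 and 14 in all 4. Reaching that size in all 4 Ptprca marrows and in no NSG marrow was seen for 13 clones (8.39% of the Ptprca list), and the converse for 0. In spleen the lists held 90 and 45 clones, 32 of them shared (35.6% and 71.1%). There 37 Ptprca clones (41.1%) and 15 NSG clones (33.3%) reached the size in 1 mouse only, and 32 and 19 in all 4. All 4 Ptprca spleens and no NSG spleen held 10 clones of that size (11.1% of the Ptprca list). For 2 clones it was the other way round (4.44% of the NSG list). Whether these counts exceed what the difference in clone number alone would give was not tested. A core of 13 clones in marrow and 15 in spleen reached the size in all 8 mice.

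**Figure D3:**
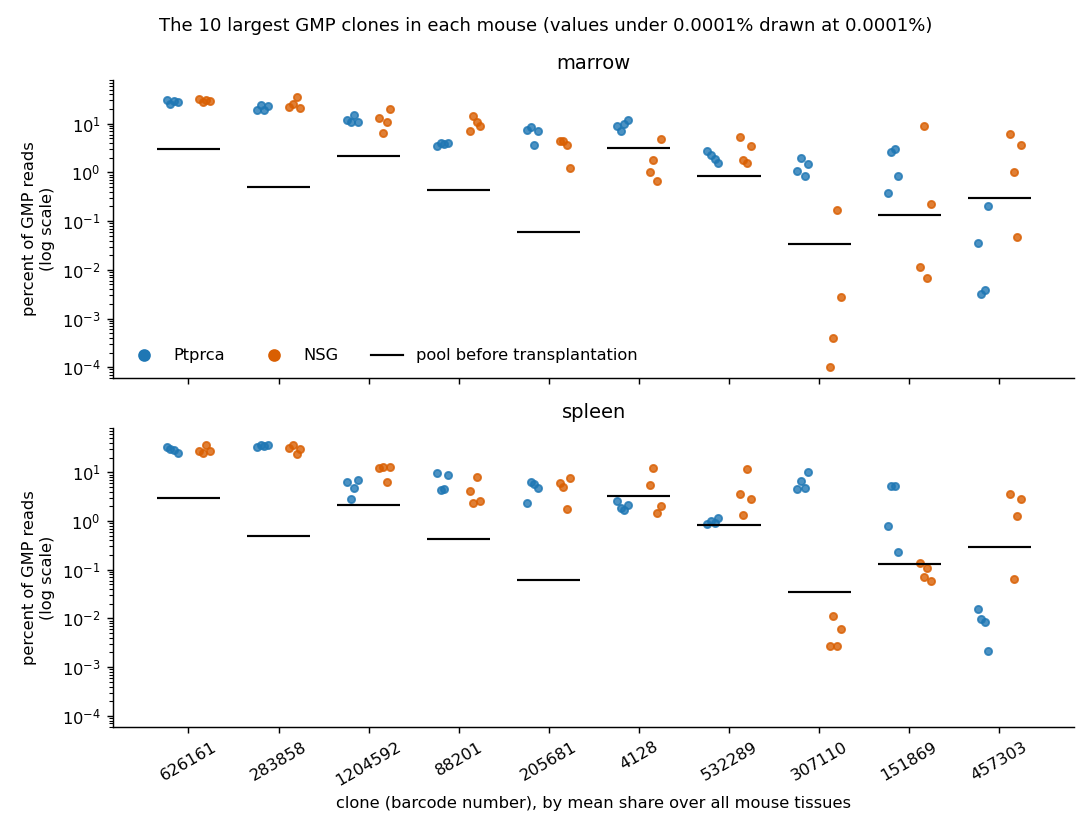
Percent of GMP reads (vertical, log scale) of the 10 clones with the highest mean share, in marrow (top) and spleen (bottom); points are mice, and the black line is the clone's share of the pool before transplantation. Clones 626161 and 283858 lie at 18.8% to 36.8% in every mouse tissue, while clones 307110, 151869, 457303 and 532289 separate the hosts in spleen.

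In marrow, limma called 44 of the 102 clones tested higher in Ptprca (43.1% of those tested) and 2 higher in NSG (1.96%), and for 47 the values of the hosts did not overlap (46.1%). The median log2 difference over the 102 clones was 3.07 towards Ptprca on the log2(CPM + 10) scale. The mean that admits a clone is taken over both hosts, so a clone can enter through Ptprca alone, and the median moved with that minimum: 1.67 over 32 clones at 1000 CPM, 2.02 over 186 at 10 CPM and 0.06 over all 847 clones with no minimum. It was 3.81 with the 20 clones that were at 0 in all 4 NSG marrows set to the least difference that 3 reads per library allow. Since all shares in a mouse sum to the same total, this asymmetry depends on the scaling. With every mouse centred on its median clone, 0 clones were higher in Ptprca and 29 in NSG, a shift of -6.00 in the median difference. With edgeR's TMM factors 22 were higher in Ptprca and 9 in NSG. Directions in marrow are therefore those of shares of all GMP reads. The count of called clones was 28 without Ptprca mouse 5, 29 without Ptprca mouse 6 and 25 without the libraries of Ptprca mice 6 and 8, against 46 in all.

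In spleen the calls ran both ways, 16 of 51 clones higher in Ptprca (31.4%) and 9 higher in NSG (17.6%). For 20 clones the hosts did not overlap (39.2%), and the median log2 difference was 1.54, also with the 3 clones at 0 in all NSG spleens at their bound. Median and balance depended on the minimum: at 1000 CPM the median over 20 clones was -0.93, with 3 calls higher in Ptprca and 6 in NSG, at 10 CPM it was 1.51 over 143 clones, with 42 and 9 calls, and with no minimum 0.23 over 431, with 28 and 5. Centring on the median clone gave 12 higher in Ptprca and 13 in NSG, a shift of -1.23, and TMM factors 15 and 10. Leaving out Ptprca mouse 5 or 7 lowered the calls from 25 to 16 or 15.

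By size in the mice, most calls higher in Ptprca marrow were of clones with a mean below 1%. Among clones with a mean under 1000 CPM, 32 of 70 were higher in Ptprca marrow and 0 in NSG marrow, and among those of 1000 to under 10000 CPM 11 of 21 and 0. Among the 11 clones at or over 10000 CPM, 1 was higher in Ptprca and 2 in NSG. In spleen the corresponding counts were 13 and 3 of 31, 0 and 3 of 9, and 3 and 3 of 11. The mean that sets these sizes is taken over the tested mice of both hosts. A clone near 0 in NSG can thus enter a size through Ptprca alone, so the counts are a description. Their directions depend on the scaling, as given above for all tested clones.

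Clone 307110 had the largest log2(CPM + 10) difference among clones called and not overlapping, in both tissues. It held 0.0345% of the pool (rank 392). In spleen it held 4.64%, 6.73%, 4.79% and 10.2% of the 4 Ptprca mice, and 0.00274%, 0.0114%, 0.00268% and 0.00601% of the 4 NSG mice. It was thus between rank 3 and 6 in every Ptprca spleen and between rank 25 and 48 in every NSG spleen (log2 difference 10.05, SE 0.99, limma adjusted p = 4.42e-06).

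In marrow clone 307110 held 1.07%, 1.97%, 0.847% and 1.52% of Ptprca mice and 0%, 3.98e-04%, 0.167% and 0.00272% of NSG mice. The hosts did not overlap there either (log2 difference 7.88, SE 1.53, limma adjusted p = 0.00246). That marrow call was lost with edgeR on the recovered reads (adjusted p = 0.0629, and 0.113 with TMM factors), after centring on the median clone (limma adjusted p = 0.321) and without the libraries of Ptprca mice 6 and 8 (0.0533), whereas all alternatives tried kept the spleen call.

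Clone 151869 (0.131% of the pool) was higher in Ptprca spleen, with large spread. It held 0.775%, 5.27%, 5.20% and 0.237% in Ptprca mice and 0.140%, 0.0697%, 0.107% and 0.0574% in NSG mice, without overlap (log2 difference 4.07, SE 1.14, limma adjusted p = 0.00914; 0.0586 without Ptprca mouse 7, 0.0964 without the libraries rich in GFP or poolless barcodes and 0.0547 with the mouse as block). In marrow it held 8.87% of NSG mouse 14, more than of any other mouse of either host, and 0.00681% to 0.225% of the other 3 NSG mice. No difference between hosts passed there (limma adjusted p = 0.156), and without mouse 14 it did (log2 difference 5.49, adjusted p = 0.00854).

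Clone 457303 (0.298% of the pool) went the other way. In spleen it held 3.58%, 0.0648%, 1.25% and 2.83% in NSG mice and 0.0155%, 0.00959%, 0.00851% and 0.00210% in Ptprca mice. The hosts did not overlap (log2 difference -6.82, SE 1.33, limma adjusted p = 8.05e-04). In marrow it was called higher in NSG too (log2 difference -5.68, SE 1.72, limma adjusted p = 0.0240), but Ptprca mouse 8 at 0.208% lay above NSG mouse 15 at 0.0464%, and leaving out Ptprca mouse 5, 6 or 7 or NSG mouse 13 or 16 raised the adjusted p to between 0.0562 and 0.0681. So did leaving out the libraries of Ptprca mice 6 and 8 (0.0858) and testing with no minimum size (0.180).

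Among the 10 largest clones, 88201, 4128, 1204592 and 532289 were also called in 1 tissue each. Clone 88201, at 0.436% of the pool, held 7.12%, 14.7%, 10.8% and 8.80% of NSG marrow and 3.52%, 3.98%, 3.76% and 3.93% of Ptprca marrow. Every NSG marrow was above every Ptprca marrow (log2 difference -1.40, SE 0.28, limma adjusted p = 0.00283; 0.0820 by eBayes without trend). In spleen its values overlapped, with 4.304% to 9.67% in Ptprca and 2.39% to 8.09% in NSG (limma adjusted p = 0.206; 0.0419 without NSG mouse 15, then higher in Ptprca).

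Clone 4128, the largest of the pool at 3.24%, held 8.87%, 7.18%, 9.84% and 11.7% of Ptprca marrow and 1.02%, 1.78%, 0.667% and 4.96% of NSG marrow. It was thus above its pool share in each Ptprca marrow and below it in 3 of 4 NSG marrows (log2 difference 2.56, SE 0.55, limma adjusted p = 0.00400). The adjusted p was 0.0627 without the libraries of Ptprca mice 6 and 8 and 0.439 with edgeR's TMM factors. Centring on the median clone turned its direction, and the clone was then called higher in NSG (log2 difference -3.43). In spleen it held 2.53%, 1.84%, 1.69% and 2.09% in Ptprca and 5.44%, 12.4%, 1.48% and 2.03% in NSG, which overlap (limma adjusted p = 0.222).

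Clone 1204592, at 2.16% of the pool, was alike in marrow, with 10.97% to 15.2% in Ptprca and 6.48% to 20.3% in NSG (limma adjusted p = 0.875). In spleen it held 6.35%, 2.77%, 4.67% and 6.93% in Ptprca and 12.3%, 12.8%, 6.44% and 12.7% in NSG. Only NSG mouse 15 fell within the Ptprca range (log2 difference -1.13, SE 0.37, limma adjusted p = 0.0257). Clone 532289, at 0.847% of the pool, held 0.884% to 1.17% of Ptprca spleen and 1.34% to 11.6% of NSG spleen without overlap (log2 difference -1.86, SE 0.67, limma adjusted p = 0.0337), and was not called in marrow. Both spleen calls were close to the threshold: leaving out Ptprca mouse 6 or 7 or NSG mouse 13 or 16 ended the first (adjusted p 0.0678 to 0.0821), and leaving out any mouse but NSG mouse 14 ended the second (0.0562 to 0.1005). Neither passed by eBayes without trend (adjusted p 0.120 and 0.0615) or with no minimum size (0.178 and 0.141), and the first did not without the 3 spleen libraries rich in GFP or poolless barcodes (0.277). Clone 205681 went from 0.0611% of the pool to 3.59% to 8.49% of Ptprca marrow, 1.26% to 4.45% of NSG marrow and 1.78% to 7.68% over the spleens, and was called in neither tissue (limma adjusted p = 0.0859 and 0.990).

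Further down, the named clones with the largest differences towards Ptprca were small there and near absent in NSG. Those of this and the next paragraph were picked for that difference, and could enter the test through Ptprca alone. Their near absence in NSG and the size of their ratios thus follow in part from the choice. Clone 181301 (0.484% of the pool) held 0.232%, 0.214%, 0.314% and 0.136% of Ptprca marrow, against 19 reads over the 4 NSG marrows together. In spleen it held 0.182%, 0.125%, 0.254% and 0.0179% in Ptprca and was at 0 in all 4 NSG mice, a share at least 3233-fold higher in Ptprca when each NSG library is set to 3 reads (limma adjusted p = 4.06e-05). Clone 840332 (0.453% of the pool) held 0.0371% to 0.407% of Ptprca marrow against 1 read over the 4 NSG marrows, a ratio of 52570 with an exact 95% interval of 9435 to 2076000 that covers counting error only (limma adjusted p = 2.27e-04). All of these lay below their pool share in both hosts.

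Clones 10809, 35245 and 51624 showed the same in marrow. They held 0.760%, 0.751% and 1.90% of the pool, a mean of 0.220% ± 0.118, 0.226% ± 0.119 and 0.163% ± 0.0231 of Ptprca marrow and at most 0.00324%, 0.00993% and 0.00354% of any NSG marrow (SD, n = 4 each). Their log2 differences were 6.97, 6.51 and 6.79 (limma adjusted p = 2.99e-04, 9.52e-04 and 2.27e-04). With edgeR on library sizes the calls of 35245 and 51624 were lost (adjusted p = 0.0526 and 0.0521), and with TMM factors those of all 3 (0.0573 to 0.0972). Centring on the median clone ended the marrow calls of these 3 and of 181301 and 840332 (limma adjusted p 0.130 to 0.706). In spleen 10809 and 35245 held 0.0218% to 0.206% and 0.0215% to 0.166% in Ptprca, against 5 and 10 reads over the 4 NSG mice (limma adjusted p = 4.06e-05 and 4.20e-05). Clone 163288, at 0.260% of the pool, held 0.00676% to 0.108% of Ptprca spleen and was at 0 in all 4 NSG spleens, at least 1355-fold higher in Ptprca by the same limit (limma adjusted p = 4.59e-04).

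Beside 457303, clones 74010, 896021, 336132 and 651935 had the largest differences towards NSG in spleen. They were picked for that difference and could enter the test through NSG alone, so its size follows in part from the choice. Clone 74010 (0.0515% of the pool) held 0.350%, 0.188%, 1.71% and 0.0774% of NSG spleen, and 0.00260%, 0.00416%, 0% and 0% of Ptprca spleen (log2 difference -7.21, SE 1.05, limma adjusted p = 8.42e-05). Clone 896021 (0.167% of the pool) held 0.0860%, 0.0290%, 0.862% and 0.345% in NSG and 7.57e-04% to 0.00348% in Ptprca (log2 difference -5.74, limma adjusted p = 4.59e-04). Clones 336132 and 651935, at 0.00956% and 0.113% of the pool, held 0.00931% to 0.0990% and 0.0230% to 0.288% of NSG spleen, against at most 0.00116% and 0.0128% of any Ptprca spleen (log2 differences -4.63 and -3.71, limma adjusted p = 0.00115 and 0.00464). None of these 4 clones was called in marrow (limma adjusted p 0.0817 to 0.977), although 896021 was higher there in every NSG mouse (0.239% to 0.446%) than in any Ptprca mouse (0.0543% to 0.191%).

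**Figure D4:**
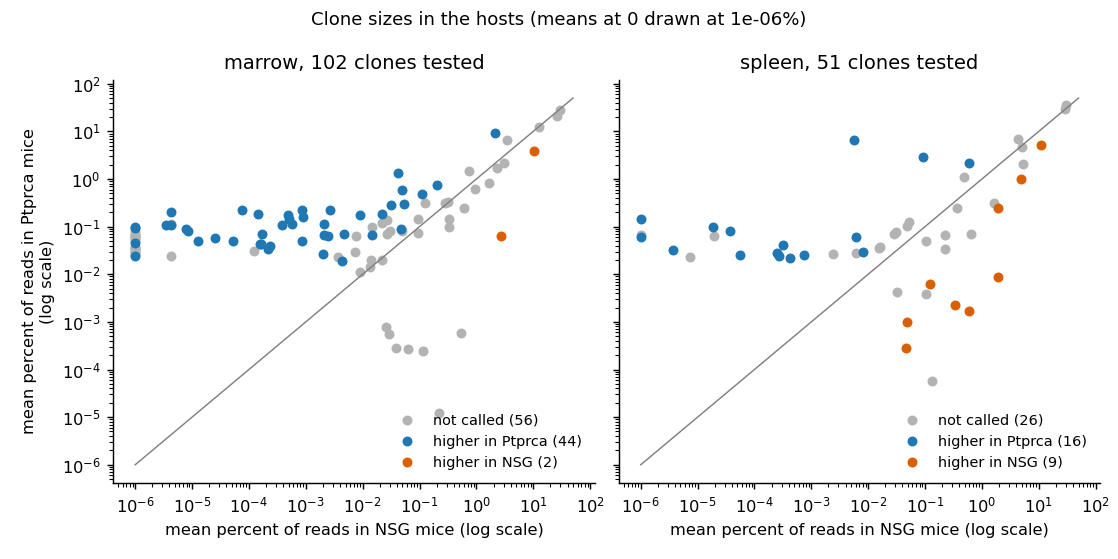
Mean share of each tested clone in Ptprca mice (vertical) against NSG mice (horizontal), in percent on log scales, in marrow (left, 102 clones) and spleen (right, 51 clones); the line marks equal shares, and colours mark clones called by limma. In marrow 44 called clones lie above the line and 2 below it, and in spleen 16 and 9; a band of clones near 0.1% in Ptprca marrow reaches down to 0 in NSG.

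Grouped by size in the pool, the summed share of a class and its median clone often differed in size or direction. The 13 clones at or over 10000 CPM in the pool held 23.6% of it. As a sum they held 45.5% to 56.5% of Ptprca marrow and 38.7% to 55.7% of NSG marrow, a log2 fold over pool of 1.14 ± 0.13 and 0.97 ± 0.23 (SD, n = 4 each; exact permutation p = 0.229). In spleen the sum was 0.87, 0.61, 0.61 and 0.53 over pool in Ptprca and 1.01, 1.10, 0.99 and 0.99 in NSG, higher in every NSG mouse (log2 difference -0.36, exact permutation p = 0.0286, adjusted 0.0607). The sum is mostly clones 626161 and 1204592, described above.

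The median clone of these 13 was higher in Ptprca in both tissues, opposite to the sum in spleen. Its log2 fold over pool was -3.05, -3.44, -2.39 and -2.56 in Ptprca marrow and -9.99, -9.99, -9.41 and -8.43 in NSG marrow. In spleen it was -4.82, -4.99, -5.22 and -8.07 in Ptprca and -9.99, -10.03, -9.08 and -9.99 in NSG. The hosts did not overlap in either tissue (log2 difference 6.60 and 3.996, exact permutation p = 0.0286 each). Values near -10 are those of a clone close to 0, with 10 CPM added to both sides. Of the 13, 8 to 10 reached 100 CPM in Ptprca marrow and 5 or 6 in NSG marrow.

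The 5 largest clones of the pool show this spread. Clones 4128, 626161 and 1204592 were among the leaders above. Clone 205626, at 2.61% of the pool (rank 3), held only 0.5998%, 1.03%, 0.4995% and 0.908% of Ptprca marrow and 0.317%, 0.141%, 0.0812% and 0.275% of NSG marrow. The hosts did not overlap, but the call was at the threshold (log2 difference 2.03, limma adjusted p = 0.0499). Leaving out any of the 4 Ptprca mice or NSG mouse 14 or 15 ended it (0.0682 to 0.138), as did 8 other alternatives (0.0501 to 0.831). After centring on the median clone it was called higher in NSG (log2 difference -3.97). Clone 34872, at 1.92% (rank 5), held 0.00203%, 0.0136%, 0.366% and 0.325% of Ptprca marrow and at most 0.00183% of NSG marrow (log2 difference 5.17, limma adjusted p = 0.0183). This call ended in 7 of 21 alternatives: without Ptprca mouse 7 (0.0580) or 8 (0.0505), with a pseudocount of 100 CPM (0.0603), with edgeR's TMM factors (0.0620), without the libraries of Ptprca mice 6 and 8 (0.114), with no minimum size (0.149), and after centring on the median clone (0.657), which turned its direction. Neither was called in spleen (limma adjusted p = 0.0716 and 0.0664). Clone 205626 was called there in 2 of 21 alternatives: without NSG mouse 13 (limma adjusted p = 0.00423) and without the libraries rich in GFP or poolless barcodes. Clone 34872 was called in 4 of 20: without Ptprca mouse 8 (limma adjusted p = 0.0145), with a pseudocount of 1 CPM, and with edgeR on library sizes and with TMM factors. Both were higher in Ptprca in each of these.

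The 208 pool clones of 1000 to under 10000 CPM, 60.5% of the pool, held 33.3% to 41.5% of Ptprca marrow and 39.7% to 54.9% of NSG marrow. Their summed log2 fold was -0.71 ± 0.13 and -0.37 ± 0.21 (SD, n = 4 each), with overlap (exact permutation p = 0.0571). Their median clone was at -6.99 to -6.46 in Ptprca against -7.50 to -7.49 in NSG, without overlap (log2 difference 0.72, exact permutation p = 0.0286). The NSG values are those of a clone close to 0 with 10 CPM added to both sides, so the size of this difference depends on that addition. Of these clones 49 to 59 reached 100 CPM in Ptprca marrow and 17 to 22 in NSG marrow. In spleen the sums were -0.38 to -0.30 and -0.53 to -0.32 (exact permutation p = 0.114), and 32 to 46 clones reached 100 CPM in Ptprca against 14 to 17 in NSG. This class thus supplied most of the additional clones of the Ptprca mice.

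The 386 pool clones of 100 to under 1000 CPM, 14.6% of the pool, held more of Ptprca spleen than of NSG spleen as a sum. Their summed log2 fold there was -0.61, 0.03, 0.25 and 0.27, against -1.06, -0.91, -1.61 and -0.82 in NSG, without overlap (log2 difference 1.09, exact permutation p = 0.0286, adjusted 0.0607). Without clone 307110 the class held 4.94%, 8.21%, 12.6% and 7.51% of Ptprca spleen and 6.98%, 7.77%, 4.78% and 8.27% of NSG spleen. These overlap (log2 difference 0.21, exact permutation p = 0.543), a setting chosen after the values were seen. Clone 307110 was picked as the largest of the class in Ptprca spleen, so a smaller difference was built into the choice. No clone picked by its size in NSG spleen was left out to match. The median clone of the class, close to 0 in both hosts, lay at -4.78 to -4.62 in Ptprca spleen and -4.89 to -4.84 in NSG spleen, without overlap (log2 difference 0.15, exact permutation p = 0.0286). In marrow the sums were -0.13, -0.18, -1.10 and -0.55 in Ptprca and -0.96, -1.33, -1.08 and -2.02 in NSG, with overlap through Ptprca mouse 7 (exact permutation p = 0.0857). The number of clones of the class at 100 CPM was 18 to 28 in Ptprca marrow and 3 to 8 in NSG marrow, and 7 to 9 and 6 to 8 in spleen.

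The 644 clones under 100 CPM in the pool, 1.35% of it, held 0.0168% to 0.919% of any mouse tissue. Their summed log2 fold over pool ranged from -3.66 to -2.83 in Ptprca marrow and from -5.75 to -0.56 in NSG marrow (exact permutation p = 0.8286), and overlapped in spleen too (exact permutation p = 0.229). The highest NSG values each rested mostly on 1 clone: clone 494733 held 0.890% of the marrow of mouse 16, clone 336132 0.416% of the marrow of mouse 14 and clone 387784 0.520% of the spleen of mouse 13. Clones 494733 and 387784, at 54.99 and 40.78 CPM in the pool, are named here after their values were seen.

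**Figure D5:**
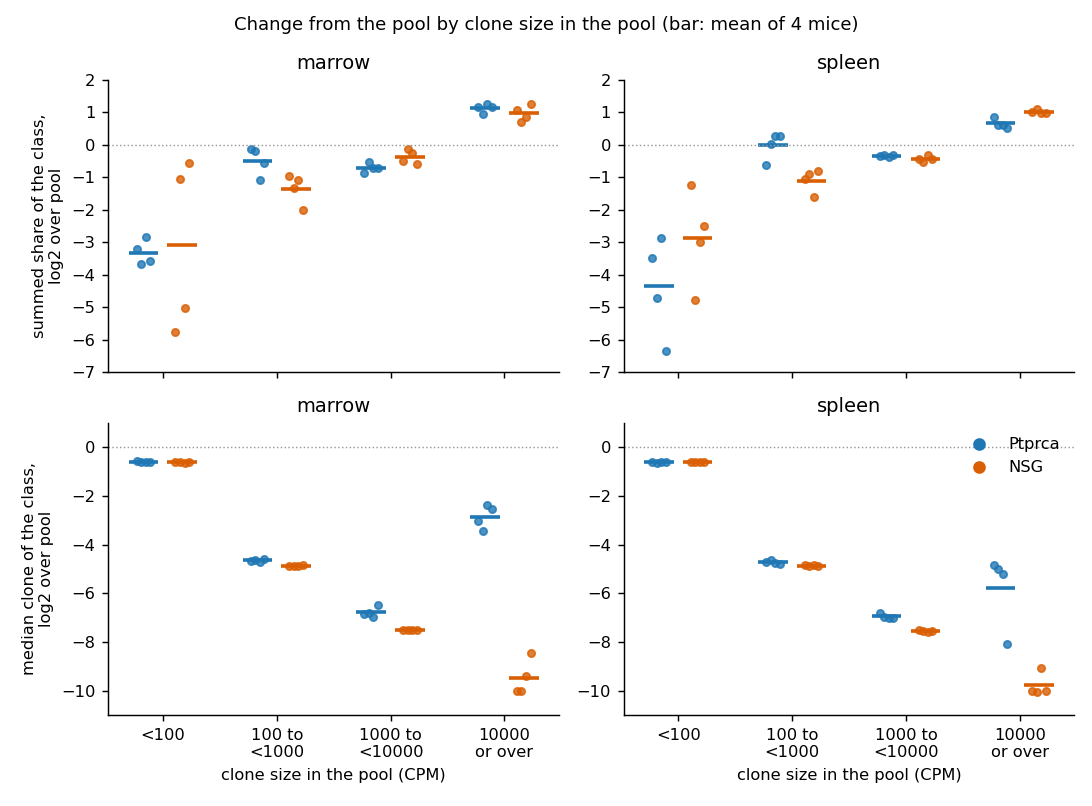
Log2 fold over the GMP_T0 pool (vertical) of 4 classes of clone size in the pool (horizontal, CPM), as the summed share of the class (top) and for its median clone with 10 CPM added (bottom), in marrow (left) and spleen (right); points are mice and bars means of 4. For the 13 clones at or over 10000 CPM the summed share is above the pool in both hosts, while the median clone lies between -3.44 and -2.39 in Ptprca marrow and between -9.99 and -8.43 in NSG marrow.

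By size in the mouse instead, the largest clones stood further above their pool share in Ptprca spleen than in NSG spleen. Clones at or over 10000 CPM in a mouse had a median log2 fold over pool of 2.93 to 3.36 in Ptprca marrow and 2.21 to 4.001 in NSG marrow, which overlap. In spleen it was 4.16 to 5.32 in Ptprca and 2.81 to 3.61 in NSG, without overlap. Clones of 1000 to under 10000 CPM lay below their pool share in every Ptprca spleen (-1.87 to -0.77) and above it in every NSG spleen (0.05 to 1.78). Clones at or over 100 CPM that exceeded their own pool share numbered 23 to 31 in Ptprca marrow against 15 to 17 in NSG marrow, and 10 to 15 against 12 to 21 in spleen. Since size in the mouse both chose and measured these clones, the values are a description.

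Whether a clone's host difference itself differed between marrow and spleen was tested clone by clone. Of 88 clones tested for host by tissue, limma called 3 (3.41%), each with an adjusted p of 0.0472, and 19 had an unadjusted p under 0.05. The median over the 88 was 1.62 log2 further towards Ptprca in marrow. All 3 lay further towards Ptprca in marrow. Clone 4128 was one, with the values given above (log2 difference of differences 3.47, SE 0.85). Clones 520451 and 902317 were the others and are named here after their values were seen. Clone 520451 held 0.141% ± 0.120 of Ptprca marrow and 4.97e-04% ± 9.94e-04 of NSG marrow, and 0.0279% ± 0.0442 and 0.00613% ± 0.0101 of spleen (SD, n = 4 each; log2 4.56, SE 1.17). Clone 902317 held 0.0496% ± 0.0116 of Ptprca marrow and at most 0.00793% of any other mouse tissue (log2 4.63, SE 1.13). These calls were fragile: 0 clones were called without Ptprca mouse 6, NSG mouse 13 or NSG mouse 14 (limma, with 12 to 18 at an unadjusted p under 0.05), 1 without Ptprca mouse 7 or NSG mouse 15, and without Ptprca mouse 8 there were 3 calls, none of them these clones.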

How the data were processed

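Barcode reads were counted in libraries labelled as genomic DNA. Since the labels' extraction protocol covers droplet capture of cells, the DNA preparation is not settled here. Bowtie 1.2.2 and R 3.6 are named in the submitters' processing notes. The deposited values are CPM that the authors filtered and collapsed to 1 column per mouse tissue from 2 PCR libraries; settings are not given in the sources used here. All values in CPM were whole multiples of 1 step within 0.01 (100%), taken as 1 read, or a fraction of 1 had duplicates been averaged. A further 29 columns of other samples were not used.

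mCHERRY barcodes listed in both tables were rescaled to 1000000 per column with the mouse as replicate; nothing says that the mice were handled separately, so p-values measure the spread between these mice. Permutation tests (scipy 1.17.1) were exact and two-sided unless stated, on log2 numbers, percentage points or log2 folds, and the 17 p-values were adjusted by Benjamini-Hochberg. Single clones were tested with limma 3.58.1 (lmFit, eBayes with trend, two-sided) on log2(CPM + 10), per tissue, for clones whose mean over the 8 mice reached 100 CPM; those with an adjusted p under 0.05 over all tested are called. The pseudocount understates changes of small clones. Host by tissue was fitted on each mouse's marrow minus spleen. edgeR 4.0.16 (quasi-likelihood) on the recovered reads with library sizes, an alternative, called 38 clones in marrow and 25 in spleen. Only 20 of these in marrow and 21 in spleen were among limma's 46 and 25. With TMM factors it called 31 and 25, of which 14 and 21 were shared with limma. Other minima, pseudocounts, scalings, barcode sets and each mouse left out were tried too.

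Marrow and spleen with the same number come from the same mouse, per the labels. Their deviations from the host means correlated by 0.00 to 0.49 over 88 clones. For Ptprca mice 5, 6 and 7 and NSG mouse 14, the spleen of another mouse of that host correlated more (0.0488 to 0.1885). The comparisons of marrow with spleen within a mouse rest on the labels for this pairing. Named were the 10 largest clones by mean share over the mouse columns, up to 5 called, non-overlapping clones per tissue and direction with the largest difference, and the 5 largest of the pool; other names are marked. Clones, lists and tests were chosen with earlier results of these data known.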

Additional observations from a re-analysis of the deposited data

Results flagged for a closer look

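Of 97 groups of 4 mice examined for a mouse far from the others (clone numbers, effective clones, largest clone, folds by pool size, and named clones at or over 100 CPM in some mouse of the group), 6 were marked; chance marks about 1 in 20. In marrow, NSG mouse 15 had 5.66 effective clones against 7.73 to 8.10, and clone 205681 held 1.26% of NSG mouse 16 against 3.66% to 4.45%. In spleen, NSG mouse 14 had 25 clones at or over 100 CPM against 31 or 32 and 6.03 effective clones against 7.23 to 7.43. Clone 1204592 held 6.44% of the spleen of NSG mouse 15 against 12.3% to 12.8%, and clone 840332 held 0.00256% of the spleen of Ptprca mouse 7 against 0.0167% to 0.0204%.

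For 3 of 88 clones limma on each mouse's marrow minus spleen called a host difference that differed between the tissues (adjusted p = 0.0472 each). These were 4128 (log2 3.47), 520451 (4.56) and 902317 (4.63). The calls were fragile: eBayes without trend called 0 clones, and centring on the median clone called 3 others, all towards NSG.

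Reads outside the mCHERRY pool also appeared. GFP reads reached 0.944% of the marrow of Ptprca mouse 6 (pool 0.0137%), BFP-named reads 0.0386% of the spleen of NSG mouse 15 (pool 0.00702%), and barcodes found in no pool 2.92% of the spleen of Ptprca mouse 7.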

How the results depend on the processing

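Clone number, effective clones in marrow, rank order and the largest clone kept their direction under every alternative tried, as did the marrow against spleen difference in clone number. For clone number this takes in the small differences at 10000 CPM (log2 0.055 in marrow and 0.0081 in spleen), where the hosts overlapped. For the largest clone the hosts overlapped in both tissues (-3.06 percentage points in marrow and 1.51 in spleen), so a kept sign there shows no difference between hosts. The cause of the changes below was not tested.

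For folds over pool (log2, Ptprca minus NSG), the median clone in place of the class sum turned the sign for pool clones under 100 CPM in marrow (0.015 against -0.22), of 1000 to under 10000 CPM in marrow (0.72 against -0.34) and at or over 10000 CPM in spleen (3.996 against -0.36). Taking all mCHERRY barcodes of either table turned effective clones in spleen (0.0814 against -0.0162) and the class under 100 CPM in spleen (0.12 against -1.48). Leaving out a mouse gave -1.11 to 0.63 for the class under 100 CPM in marrow and -0.09 to 0.02 for effective clones in spleen, so these have no settled sign.

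Called clones in marrow (46) became 15 at a minimum mean of 1000 CPM, 19 with no minimum, 29 after centring on the median clone (5 of them among the 46), 25 without the libraries rich in GFP or poolless barcodes, and 28 to 42 with a mouse left out. In spleen (25) they became 51 at a minimum of 10 CPM, 9 at 1000 CPM and 15 to 26 with a mouse left out. Host by tissue calls (3) became 8 with a pseudocount of 100 CPM, 19 without those libraries (1 shared; Ptprca then rests on 1 mouse, assumed to vary like the others), 0 to 3 with a mouse left out, and in limma 0 at a minimum of 10 CPM, 0 with no minimum and 0 by eBayes without trend (unadjusted p under 0.05 for 23, 28 and 18). After centring they were 3, all towards NSG. With the mouse as replicate block over both tissues, 55 clones were called in marrow and 23 in spleen; of named clones this ended the spleen call of 151869 (limma adjusted p = 0.0547) and the marrow call of 205626 (0.147), and made 336132 and 74010 called in marrow (0.0215 and 0.0461).

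Some named clones changed sign (log2). Centring on the median clone did so in marrow for 1204592 (-5.93), 205681 (-4.96), 4128 (-3.43), 151869 (-2.58), 163288 (-1.01), 651935 (-5.96), 205626 (-3.97) and 34872 (-0.83), and in spleen for 626161 (-1.19), 283858 (-1.01) and 88201 (-0.48). Clones 4128 and 205626 thereby went from a marrow call higher in Ptprca to one higher in NSG. With edgeR on library sizes 1204592 (-0.0431), 151869 (-0.41) and 651935 (-0.13) did so in marrow, and with TMM 1204592 (-1.53), 205681 (-0.40), 151869 (-1.69) and 651935 (-1.81) in marrow and 626161 (-0.11) in spleen. A pseudocount of 1 CPM turned 651935 in marrow (-0.0336). Without the libraries rich in GFP or poolless barcodes, 626161 (-0.10), 205681 (0.16) and 4128 (0.30) turned in spleen. Leaving out a mouse turned 1204592 (-0.22 to -0.0469) and 651935 (-0.73 to -0.37) in marrow, and 626161 (-0.0301 to -0.0241) and 205681 (0.0486 to 0.30) in spleen. Depth limits only the faintest clones, since a listed 0 allows at most 0.552 CPM in any mouse tissue.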
